A study of Homo sapiens with 23 samples.

Results

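The regions described here were the contacts of SINE-VNTR-Alu (SVA) transposons in a table of YY1 HiChIP from NCCIT cells. A row of the table is a bin pair, that is, a pair of 5-kb bins of 1 chromosome with at least 1 raw contact in any of 6 raw count columns. A bin pair was kept when either bin, its anchor, shared at least 1 bp with 1 of the 751 SVAs that the study lists as de-repressed in pluripotent cells. Of the 4048169 bin pairs, 9874 (0.2439%) had an anchor on an SVA, and in 6 of these both anchors did. The other anchor is called the partner anchor here. The study chose the 751 SVAs for their lack of H3K9me3, so low H3K9me3 in untreated cells is not an independent result for them.

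NCCIT is an established human embryonal carcinoma line, derived from a germ cell tumour, with pluripotent features. SCi-NCCITs are NCCITs that carry an inducible dCas9-KRAB and 2 sgRNAs against SVAs on piggyBac transposons, kept under puromycin and geneticin. All groups except 1 H3K9me3 library of parental NCCITs were SCi-NCCITs, either with no doxycycline or with 2 µg/mL doxycycline for 72 hours. HiChIP and RNA had 3 samples per treatment, H3K9me3 and YY1 had 2 and OCT4 had 1, and no group received doxycycline without dCas9-KRAB or the sgRNAs. The 6 HiChIP count columns are headed Category1 and Category2, each with R1 to R3, and the sample labels do not say which category had doxycycline. Their values are therefore given column by column, with no test between them.

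SVAs are young hominid-specific composite retrotransposons, rich in GC and tandem repeats, that other elements of the genome mobilise. YY1 is a zinc finger factor that binds near promoters and can form dimers, so that it holds enhancers and promoters together. HiChIP ligates DNA ends that lie close together in the nucleus and then pulls down the fragments with an antibody, here against YY1. H3K9me3 is a repressive histone mark that KRAB recruits through TRIM28 and SETDB1.

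The coordinates fitted hg19. The last bin of chromosome 1 ended at 249230000, inside the 249250621 bases of that chromosome in hg19, and between 97.9% and 98.2% of the bins with a YY1 peak in each of the 4 YY1 libraries were in the table. A YY1 peak from any of these libraries lay in an anchor of 93.63% of the SVA bin pairs, against 89.76% of all bin pairs. The name "loop" was less well borne out, since 64.24% of the SVA bin pairs rested on 1 raw contact, and they are called bin pairs below.

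The sequence under YY1 was read first, because it bears on what the anchors hold. Of the 92 SVAs with a YY1 peak in the first library without doxycycline, the peak summit lay inside the SVA in 71 (77.17%). In windows of 121 bases centred on the summit, the letters ATGGCG or their reverse complement CGCCAT, the core of the motif that YY1 is known to bind, were searched on both strands. The window printed here is the promoter of PPP1R8 beside SVA_D_r30, where the summit lay outside the SVA, as the plus strand of hg19 with the core in capitals. It is shown because that anchor had the second most bin pairs of all SVAs.

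SVA_D_r30, chr1:28157289-28157409: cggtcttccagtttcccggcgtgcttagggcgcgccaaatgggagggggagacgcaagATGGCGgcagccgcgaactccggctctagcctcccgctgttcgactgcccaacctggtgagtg

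Since neighbouring SVAs can share a peak, the 92 SVAs gave 90 distinct windows. The core was present on either strand for 37 of the 92 SVAs (40.22%), in 35 of the 71 with the summit inside the SVA, and in 11035 of the 56110 windows around all YY1 summits of that library (19.67%). It was also present in 344 of the 635 SVAs on assembled chromosomes (54.17%). The longer form AANATGGC was found for 3 of the 92 SVAs (3.26%) and in 27.09% of all windows. The core was picked after the SVA sequences had been read, and a match is a description of the letters, not a bound site.

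Most SVAs had contacts, and most of these contacts were few. Of the 635 SVAs on assembled chromosomes, 563 (88.66%) had at least 1 bin pair, with a median of 9 per SVA (quartiles 4 and 16). A bin pair of at least 5 raw contacts was found for 278 SVAs, and one above 0 in all 6 columns for 104. The 72 SVAs without a bin pair had a median length of 1004.5 bp, against 624 bp for those with one. By subfamily, the share with a bin pair ran from 68.97% of the 29 SVA-C to 91.49% of the 47 SVA-A, and the median number of bin pairs from 6 in SVA-F to 12 in SVA-A. SVA-D, the most numerous subfamily with 196 copies, had the largest share with a bin pair of 5 or more contacts, 52.55%.

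A few SVAs held much of the total. The 19 SVAs with 100 or more bin pairs, which covered 25 bins, took 4101 bin pairs, or 41.53% of all those on SVAs. The YY1 lists without doxycycline had a peak on 10 of these 19 SVAs in both libraries, and 9 of the 19 shared a bin with the transcription start site (TSS) of a protein-coding gene. Among all SVAs with a bin pair, the median was 16 bin pairs for the 65 SVAs with a YY1 peak in both libraries, 14 for the 48 with a peak in 1 library and 8 for the 450 with none.

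**Figure D1:**
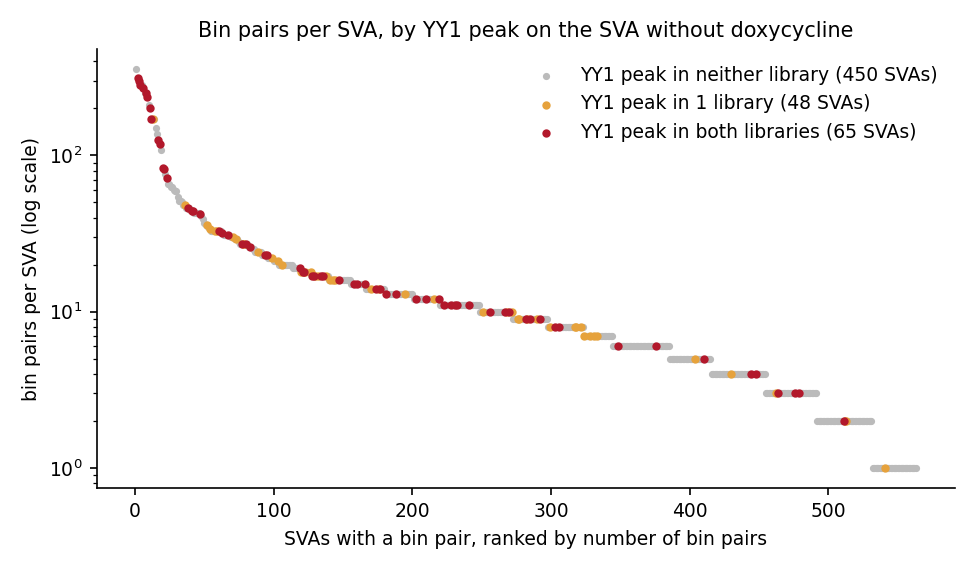
Number of bin pairs of each of the 563 SVAs with at least 1, ranked from most to fewest (log scale), with points coloured by the number of libraries without doxycycline that had a YY1 peak on the SVA. SVAs with a YY1 peak in both libraries stand among the highest ranks (median 16 bin pairs, n = 65 SVAs), but are also found near the bottom.

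The SVA with the most bin pairs was SVA_D_r1152 (chr17:3537001-3537574), in SHPK, whose bin also holds the TSS of CTNS, the lysosomal cystine transporter. It had 356 bin pairs and 1062 raw contacts, with a median span of 562.5 kb. Its contacts in the order Category1 R1, R2, R3 and Category2 R1, R2, R3 were 128, 177, 228, 74, 274 and 181. The SVA itself had no YY1 peak without doxycycline, whereas the 5-kb bin around it did in all 4 YY1 libraries.

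SVA_D_r30 (chr1:28155637-28156286) followed with 312 bin pairs and 1091 contacts, and its column counts were 126, 208, 319, 69, 249 and 120. It stands next to the promoter of PPP1R8, a nuclear inhibitor of protein phosphatase 1, whose sequence is printed above. The others of the 8 SVAs with the most bin pairs were SVA_D_r539 with 299 (TSS of ARMT1 and RMND1 in its bins), SVA_D_r1101 with 284 (TSS of E4F1), SVA_F_r188 with 283 (within HIGD1A), SVA_A_r80 with 269 (TSS of AARS2), SVA_D_r1088 with 250 (TSS of MPI) and SVA_A_r68 with 249 (TSS of ANKDD1B). So 7 of these 8 SVAs shared their bins with a promoter, and what the transposon and the promoter each add to the contacts cannot be told apart at 5 kb.

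SVA_D_r153 and SVA_E_r223, both drawn out by the study, had fewer contacts. SVA_D_r153 (chr2:32425416-32425908), in the zinc transporter gene SLC30A6, had 36 bin pairs and 54 contacts, of which 35 were in Category2 R3. Its 2 strongest bin pairs had 6 contacts each, and the one 155 kb away held the TSS of BIRC6, an inhibitor of apoptosis, with its contacts only in Category1 R2 and R3. SVA_E_r223 (chr20:4012514-4014746) had 17 bin pairs and 36 contacts, with a strongest bin pair of 12 contacts that was above 0 in all 6 columns and held no protein-coding TSS. That partner bin lies inside RNF24, a RING finger gene, and 5 bin pairs of SVA_E_r223 with 16 contacts ended within RNF24, with 2, 3, 3, 2, 4 and 2 contacts in column order.

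SVA bins were not busier than the bins around them. The 621 bins that overlap an SVA had a mean of 15.91 bin pairs and a median of 7, and 12.238% of them had none. Bins 5 to 50 kb away on either side had means from 14.736 to 22.788 and medians of 8 or 9. In contrast, 18.035% of the SVA bins had a YY1 peak in both libraries without doxycycline, against 8.092% to 12.601% of the bins 5 to 50 kb away. A TSS of any gene lay in 20.451% of the SVA bins and in 22.736% to 29.431% of the others.

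**Figure D2:**
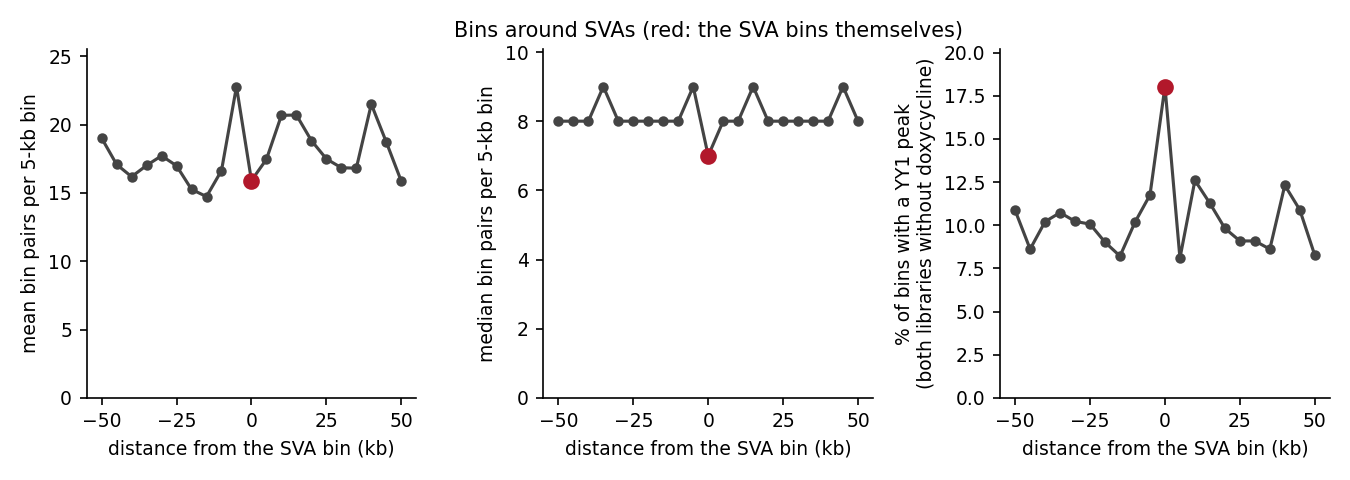
Mean and median number of bin pairs per 5-kb bin, and percent of bins with a YY1 peak in both libraries without doxycycline, against the distance in kb from the bins that overlap an SVA (red). The red point is at 15.91 and 7 bin pairs, within or under the range of its neighbours, and at 18.035% for YY1, above all of them.

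YY1 at the bin went with more contacts. Among the 545 SVA bins in the table, the 111 with a YY1 peak in both libraries without doxycycline had a median of 17 bin pairs (quartiles 10.5 and 50), and the 434 others had 7 (quartiles 3 and 12). Over all 524951 bins of the table, the medians were 41 with such a peak and 6 without. The pull-down used YY1 itself, so YY1 peaks and HiChIP contacts are not independent measures. The 621 SVA bins were also classed by where the peak lay. In 76 bins an SVA of the bin carried the peak, which can lie across the bin's edge, 38 others had the peak elsewhere in the bin, and 507 had neither. The median was 15 bin pairs with the peak on the SVA and 26.5 with the peak elsewhere in the bin.

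Contact strength and distance resembled the table as a whole. The mean was 2.347 raw contacts per SVA bin pair and 2.246 per bin pair overall. Of the SVA bin pairs, 952 (9.64%) had at least 5 contacts and 317 (3.21%) at least 10, against 8.02% and 2.77% of all. Only 162 (1.64%) were above 0 in all 6 columns, against 1.36%, and 71.3% were above 0 in a single column. The strongest SVA bin pair had 79 contacts, and the strongest of the table had 2122.

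The anchors of an SVA bin pair lay from 10 to 2000 kb apart, with a median of 290 kb (quartiles 105 and 655), against 315 kb for all bin pairs. Those with at least 5 contacts were shorter, with a median of 55 kb, against 75 kb. Below 50 kb, 31.46% of the SVA bin pairs had 5 or more contacts and 24.96% of all did. Between 50 and 100 kb the shares were 20.83% and 14.32%. From 100 to 500 kb they were 6.97% and 7.11%, so strong SVA bin pairs exceeded the table's share below 100 kb and not beyond. No test was run over bin pairs, because they share bins and SVAs.

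Each count column is given next. The table's total contacts per column were 1138694, 1251120 and 2276299 for Category1 R1 to R3 and 740423, 2296502 and 1390174 for Category2 R1 to R3. Raw contacts were also scaled to contacts-per-million of the column, called contact CPM. SVA bin pairs took a contact CPM of 2828 (exact 95% interval 2731 to 2927), 2672 (2582 to 2764) and 2681 (2614 to 2749) in Category1. In Category2 they took 2164 (2059 to 2272), 2372 (2309 to 2436) and 2487 (2405 to 2572). These intervals cover counting error only. The bins 10 to 20 kb from SVAs took a contact CPM between 14798 and 16038 in the 6 columns, summed over 3289 bins, against 621 SVA bins.

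The columns differed most at SVA bins with YY1. The 76 bins with the YY1 peak on the SVA took a contact CPM of 1074, 1147 and 1115 in Category1 R1 to R3 and 640, 765 and 737 in Category2 R1 to R3. Without the bins of SVA_D_r82 these values were 946, 932 and 968, then 629, 742 and 691. The 38 bins with the peak elsewhere took 746, 564, 638, 582, 678 and 713 in the same order. The 507 bins with neither took 1008, 964, 929, 941, 931 and 1038.

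The SVA bins were also sorted by their marks with doxycycline. The 153 bins whose SVA had H3K9me3 peaks in both libraries with doxycycline and in none without it took 1320, 1293, 1265, 775, 1003 and 1000 contact CPM in column order. The 468 others took 1509, 1380, 1416, 1388, 1369 and 1488. Of the 76 bins with YY1 on the SVA, 39 had the peak in both libraries with doxycycline and took 840, 929, 864, 498, 572 and 569 contact CPM. The 24 bins with the peak in neither library took 190, 188, 219, 118, 176 and 142. The bins of SVA_D_r82 are among the 39 and alone took 128, 215, 147, 10.8, 22.6 and 46.0 contact CPM. The values of the 39 were not recomputed without them.

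Some single SVAs differed widely between columns and others did not. Among the 8 SVAs with the most bin pairs, the highest column was between 1.42 and 1.93 times the lowest, in contact CPM. Among all 19 SVAs with 100 or more bin pairs, 8 had a highest column at least 5 times the lowest. SVA_D_r82 (chr1:155804613-155805269), in the transcriptional regulator gene GON4L, had 146, 269, 335, 8, 52 and 64 contacts. SVA_D_r35 (chr1:36708799-36709676), in THRAP3, had 18, 123, 168, 7, 27 and 11.

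Other SVAs of this group were low in other columns. SVA_D_r54 had 83, 5, 129, 35, 114 and 67 contacts, SVA_F_r99 had 41, 3, 13, 35, 139 and 65, and SVA_F_r923 had 39, 10, 86, 1, 95 and 61. SVA_D_r54 and SVA_F_r99 were lowest in Category1 R2 and SVA_F_r923 in Category2 R1.

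Partner anchors held a TSS more often than the anchors of the whole table. A TSS lay in 42.68% of the partner anchors (95% Wilson interval 41.71 to 43.66, n = 9880 ends), against 32.2% of all anchors of the table. The interval treats the ends as separate draws, although they share bins and SVAs, and so understates the uncertainty. For protein-coding genes the shares were 35.28% and 24.86%. The share rose with the number of contacts, to 58.34% for bin pairs with at least 5 contacts (48.68% in the whole table) and to 70.37% for those above 0 in all 6 columns (59.95%). It was 39.97% below 50 kb, against 27.56% of all anchors, and 42.78% from 1000 to 2000 kb, against 34.77%. The surroundings of SVAs were also richer in TSSs, which lay in 22.736% to 29.431% of the bins 5 to 50 kb away. Over all bins of the table it was 16.45%. The part of this in the partner share was not tested.

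YY1 marked partner anchors about as often as any anchor. Without doxycycline, 46.67% and 48.25% of the partner anchors had a YY1 peak in the 2 libraries, against 43.6% and 47.21% of all anchors. With doxycycline the values were 51.37% and 54.53%, against 49.14% and 53.93%.

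H3K9me3 peaks were more frequent with doxycycline at SVA anchors but not at their partners. An H3K9me3 peak was present at 31.83% and 24.03% of the SVA anchors without doxycycline and at 72.41% and 75.74% with it, and at 9.99% in parental NCCITs. At partner anchors the values were 16.97% and 16.66% without doxycycline and 13.9% and 17.39% with it. The SVA values of the 2 groups did not overlap, whereas the partner values did. Over all anchors of the table the values were 23.12% and 23.92% without doxycycline and 17.67% and 23.75% with it. These shares count a bin once per bin pair, so SVAs with many bin pairs weigh more. With each SVA bin counted once, 46.38% and 30.6% had a peak without doxycycline and 66.34% and 61.19% with it.

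**Figure D3:**
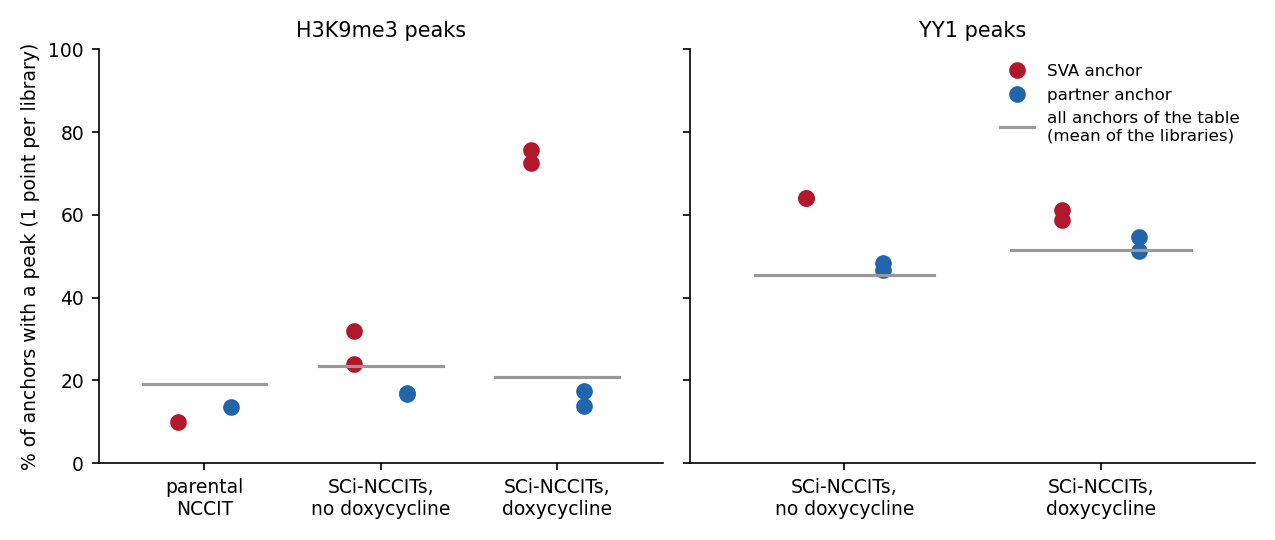
Percent of SVA anchors (red) and partner anchors (blue) of the SVA bin pairs with an H3K9me3 peak (left) or a YY1 peak (right), 1 point per library, with grey lines for the mean over all anchors of the table. Each bin counts once per bin pair. H3K9me3 at SVA anchors is at 72.41% and 75.74% with doxycycline and at 31.83% and 24.03% without it, while partner anchors stay between 13.57% and 17.39%.

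Counted by SVA, H3K9me3 peaks lay on 197 and 51 of the 563 SVAs with a bin pair in the libraries without doxycycline and on 339 and 278 in those with it. The means were 124 ± 103 and 308.5 ± 43.1 (SD, n = 2 libraries each), and the exact two-sided permutation p was 0.333, the smallest that 2 against 2 libraries can give. YY1 peaks lay on 92 and 86 of these SVAs without doxycycline and on 59 and 61 with it, or 89 ± 4.24 and 60 ± 1.41 (SD, n = 2, exact permutation p = 0.333). The lists with doxycycline held more YY1 peaks elsewhere, since they covered 14.64% and 19.28% of all bins of the table, against 10.42% and 13.18% without it. OCT4 (1 library each) had peaks on 57 of these SVAs without doxycycline and on 3 with it.

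The 72 SVAs without a bin pair had almost no YY1. A peak lay on 0 and 1 of them without doxycycline and on 1 and 2 with it (exact permutation p = 0.667, n = 2). Their H3K9me3 peaks numbered 20 and 1 without doxycycline and 22 and 9 with it (exact permutation p = 0.667, n = 2).

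The strongest bin pairs mostly joined SVAs to promoters within 100 kb. Of the 8 bin pairs with the most contacts, 56 to 79, 7 had a protein-coding TSS in the partner anchor, and 7 had a YY1 peak there in all 4 libraries. The SVA anchor had a YY1 peak in both libraries without doxycycline in 5 of them. The strongest, with 79 contacts over 50 kb, joined SVA_D_r80 to CHTOP, a factor of mRNA export, and its column counts were 14, 8, 18, 5, 22 and 12.

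The second, with 72 contacts over 10 kb, joined SVA_A_r223 to LPO and MKS1, a ciliary transition zone gene. The third, with 66 contacts over 95 kb, joined the bin of SVA_D_r302 and SVA_D_r303 to RAB7A, a GTPase of late endosomes, and that SVA bin had no peak in any ChIP library. The remaining 5 held PNPT1 (62 contacts), EMC6 and TAX1BP3 (57), WSB1 (57), no protein-coding TSS (57, from SVA_F_r188) and SEC23B (56). All 8 were above 0 in all 6 columns.

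Among bin pairs of at least 100 kb with a protein-coding TSS in the partner anchor, the strongest joined SVA_D_r82 to KHDC4 over 100 kb with 52 contacts, in columns 8, 13, 12, 0, 14 and 5. SVA_D_r1237 met PRKCSH, a subunit of glucosidase II, and ODAD3 over 135 kb with 45 contacts. SVA_A_r33 met PTMA, which encodes prothymosin alpha, over 170 kb with 40 contacts. SVA_D_r35 met the kinase gene STK40 over 145 kb with 34 contacts, and SVA_A_r240 met MRPS12 and SARS2, both of mitochondrial translation, over 125 kb with 33. All 5 partner anchors had a YY1 peak in all 4 libraries, and all 5 SVA anchors had H3K9me3 in both libraries with doxycycline, that of SVA_D_r1237 also in both without it.

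RNA was then compared at the genes contacted, with 3 libraries per treatment and 15305909 to 49878613 estimated counts per library. A TSS of 3855 genes lay in a partner anchor, 2446 of them protein coding, and 44.64% of the 3855 were reached by 1 raw contact. Of the 2302 that were tested, 436 (18.94%) passed an adjusted p of 0.05 in edgeR's quasi-likelihood test, 203 higher and 233 lower with doxycycline. Over all 16370 genes tested, 17.5% passed, 8.97% higher and 8.49% lower, so the contacted genes were near the background. The count was 219 and 263 without no-doxycycline replicates 2 and 3, and 258 and 216 without doxycycline replicates 1 and 2. The share over all genes under these omissions is not set beside these counts. In bulk RNA, fewer cells of a type and less RNA per cell cannot be told apart.

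The share varied with the distance and strength of the contact. It was 22.8% of 456 genes reached by a bin pair of at least 5 contacts, 48 higher and 56 lower. Of 131 genes reached by a bin pair above 0 in all 6 columns it was 19.8%, 17 higher and 9 lower. Within 50 kb of the SVA bin, 93 of 376 genes passed (24.7%), 34 higher and 59 lower, and among the 1926 genes reached only from farther away 343 did (17.8%), 169 higher and 174 lower. The difference between these shares was not tested. Some contacted genes also have a TSS in an SVA bin, such as ANKDD1B and ASRGL1, both reached within 50 kb. Without such genes, 421 of 2264 contacted genes passed (18.6%), 199 higher and 222 lower. The share within 50 kb was not recomputed without them.

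Genes with a TSS inside an SVA bin stood furthest from the background. Of 63 tested, 24 passed (38.1%), 20 lower and 4 higher with doxycycline, and the median log2 fold change was -0.10 (-0.003 over all genes). For 19 of the 20 lower genes an SVA of the bin had an H3K9me3 peak in both libraries with doxycycline, as for 0 of the 4 higher genes and 17 of the 39 that did not pass. Without the no-doxycycline replicate 3, 15 passed, a count that has no share over all genes beside it. These genes lie in the SVA bin itself, so the counts are not of contacts at a distance. Some of the lower genes share an SVA, namely CTNS, SHPK and a read-through gene, and ARMT1 and RMND1. EIF3C, also lower, lies in an SVA bin without a bin pair.

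ARMT1, named as an acidic residue methyltransferase, had 327, 346 and 314 CPM (counts-per-million) without doxycycline and 122, 119 and 115 with it. The groups did not overlap, and the log2 fold change was -1.47 ± 0.057 (SE, adjusted p = 8.559e-07, edgeR). RMND1, a mitochondrial translation factor whose TSS lies in the same bin, had 24.8, 33.2 and 33.5 CPM and then 17.7, 19.2 and 17.6 (log2 fold change -0.76 ± 0.109, adjusted p = 0.00194).

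ANKDD1B, at SVA_A_r68, went from 3.95, 3.91 and 3.81 CPM to 0.778, 0.775 and 0.510 (log2 fold change -2.49 ± 0.187, adjusted p = 4.193e-05). AARS2, the mitochondrial alanyl-tRNA synthetase, at SVA_A_r80, went from 62.9, 60.6 and 51.1 CPM to 32.5, 32.1 and 33.9 (-0.82 ± 0.080, adjusted p = 2.026e-04). DERA, an aldolase of deoxyribose breakdown, at SVA_E_r168, went from 96.5, 88.7 and 93.0 CPM to 47.9, 48.0 and 48.1 (-0.95 ± 0.052, adjusted p = 6.181e-06). In all 3 genes the groups stood apart.

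At the SVA with the most bin pairs, SHPK, the sedoheptulose kinase, fell from 47.5 ± 2.29 to 32.9 ± 0.866 CPM (SD, n = 3, log2 fold change -0.52, edgeR adjusted p = 4.915e-04). CTNS fell from 27.3 ± 1.46 to 21.2 ± 1.72 CPM (-0.37, edgeR adjusted p = 0.0140), a call that was lost without the no-doxycycline replicate 2. A read-through gene spans both, so reads could be divided between the 3.

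Other genes at SVAs with many bin pairs did not pass. PPP1R8 had 118 ± 5.86 and 105 ± 0.926 CPM (SD, n = 3, edgeR adjusted p = 0.0570). MPI, the mannose phosphate isomerase, had 72.5 and 73.9 (means, adjusted p = 0.748), and E4F1 had 36.7 ± 2.58 and 37.4 ± 2.07 (adjusted p = 0.775). SVA_D_r1088 at MPI and SVA_D_r1101 at E4F1 each had H3K9me3 peaks in both libraries with doxycycline.

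**Figure D4:**
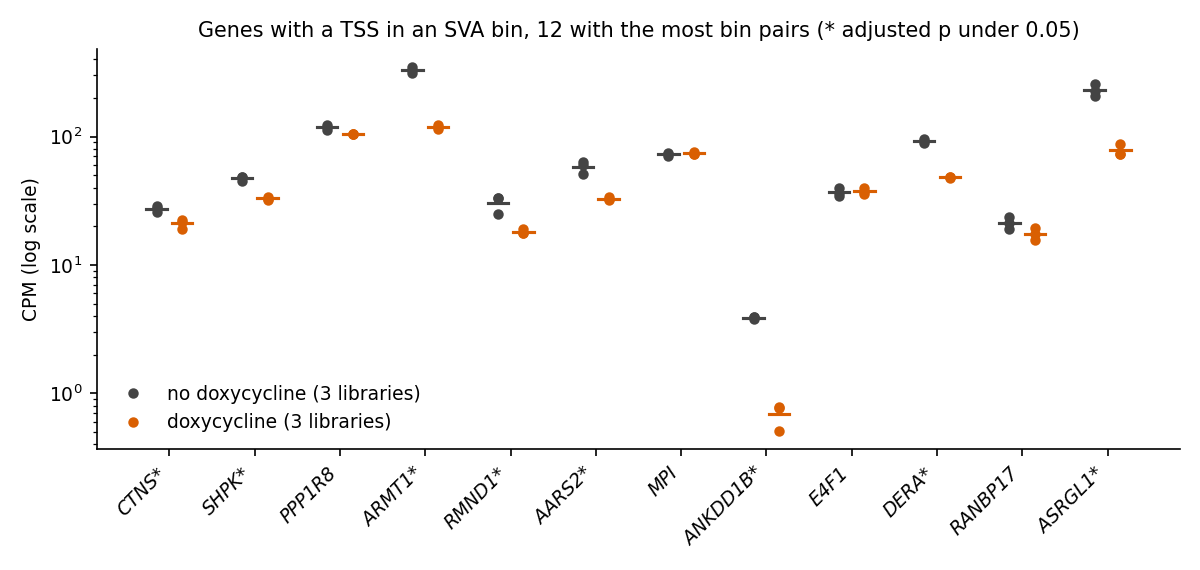
CPM (log scale) in each RNA library without (grey) and with doxycycline (orange) for the 12 named protein-coding genes with a TSS in an SVA bin and the most bin pairs, with lines at the means and stars for an edgeR adjusted p under 0.05. ARMT1 (329 to 119) and ANKDD1B (3.89 to 0.688) show wide gaps between the groups, and MPI and E4F1 overlap.

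Of the 10 protein-coding genes with the most raw contacts, 9 were tested and 1 passed, where 17.5% of all genes did, so the count is too small to be read against the background. That gene was GON4L, with 142 contacts from 11 bin pairs in columns 20, 38, 59, 3, 12 and 10, with SVA_D_r82 inside the same gene and 4 SVAs farther away. Its RNA was at 212, 233 and 202 CPM without doxycycline and at 130, 124 and 143 with it, with no overlap (log2 fold change -0.70 ± 0.073, edgeR adjusted p = 3.172e-04).

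RPA2, a subunit of replication protein A with 92 contacts, had 286 ± 3.63 and 286 ± 10.4 CPM (SD, n = 3, edgeR adjusted p = 0.961). RAB7A, with 88 contacts, had 194 ± 8.57 and 213 ± 3.53 (adjusted p = 0.123). KHDC4, with 84 contacts, had 126 ± 4.73 and 135 ± 4.61 (adjusted p = 0.259), and CHTOP, with 80, had 137 ± 2.88 and 145 ± 5.45 (adjusted p = 0.324). MKS1, FAM219B, TM9SF4 and ACKR2 did not pass either, and LPO was too low to test.

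The contacted genes with the largest changes rested on little contact evidence. Of the 16 named for their falls and rises, 10 were reached by 1 raw contact. ABCC2, an organic anion exporter with 1 contact over 430 kb, had a log2 fold change of -3.61 (edgeR adjusted p = 7.352e-05). SFXN3, a mitochondrial serine transporter with 1 contact over 755 kb from the same SVA, SVA_D_r830, had one of 5.17 (adjusted p = 5.865e-04).

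Of the 8 genes named for their rises, IFI6 had the most contacts. IFI6 is an interferon-induced gene and had 10 contacts from SVA_D_r30, SVA_C_r4 and an unnumbered SVA-F, in columns 1, 5, 1, 0, 1 and 2. It had 9.27, 8.04 and 9.96 CPM without doxycycline and 24.7, 23.2 and 19.6 with it (log2 fold change 1.3 ± 0.11, edgeR adjusted p = 1.044e-04). SEMA4A, a semaphorin with 5 contacts from SVA_D_r82 in Category1 R1 and R2 alone, fell by 1.66 on the log2 scale (edgeR adjusted p = 3.887e-05). RNF24 had 6 contacts at bins that hold its TSS, all with SVA_A_r245. Of the 36 contacts of SVA_E_r223, 16 ended elsewhere in RNF24 and the others outside the gene. SVA_A_r245 (chr20:4015277-4015629) lies in the bin next to that of SVA_E_r223 and had 172 bin pairs and 440 contacts. RNA of RNF24 fell from 43.4 ± 2.88 to 29.6 ± 0.571 CPM (SD, n = 3, edgeR adjusted p = 5.401e-04).

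Genes for looping and silencing factors were read next, from lists drawn up for these data. Of 23 genes for looping factors, 6 passed, all lower with doxycycline, where 8.49% of all genes were lower. YY1 had a log2 fold change of -0.10 (edgeR adjusted p = 0.202). CTCF, the insulator factor, fell by 0.23, and RAD21, a cohesin subunit, fell by 0.20 on the log2 scale, and STAG1, PDS5B, ESCO1 and MED12 also passed. Of 20 genes for silencing factors, 4 were lower and 0 higher, where 17.5% of all genes passed in either direction and 8.49% were lower. They were ZNF611, a KRAB zinc finger gene, the methylation genes DNMT3B and UHRF1, and MPHOSPH8, of the HUSH complex.

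The summed level of 14 pluripotency markers was 1732 to 1932 TPM without doxycycline and 1350 to 1527 with it, and 7 of the 14 were lower, where 8.49% of all genes were. The 15 markers of other cells summed to 124 to 162 TPM and 130 to 140 TPM, most of it HAND1, with GATA6, MIXL1 and NEUROG2 higher at low levels and none of the 15 at 0 in all libraries. The part of these shifts in the results above was not tested.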

How the data were processed

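HiChIP, ChIP-seq and RNA-seq libraries from NCCIT cells were read. The members and the gene lists were chosen with earlier results of these data known. The authors deposited raw contact counts per bin pair and a ChIP coverage signal per bin. Tools and filters behind this table are not given in the sources used here. Its headings name 2 categories but no treatment. The 6 columns of per-sample q values and the authors' labels of their own comparison were not used. Peak lists, deposited per library, give fold enrichment as a ratio and −log10 q values. The authors trimmed with TrimGalore!, aligned with BWA to hg19, removed duplicates and called peaks. The signal gave a median of 93 and 87 per SVA bin in Category1 and Category2, against 78 in both over all bins, and was used for nothing else.

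For RNA, kallisto output was deposited as estimated counts and as TPM for each transcript. Sums of estimated counts were taken over the genes in GENCODE v44lift37 (88.21% of transcripts matched, holding 95.85% to 95.96% of the counts), rounded, and tested in R 4.3.3 by edgeR's quasi-likelihood method (version 4.0.16, TMM scaling, low counts removed by filterByExpr, Benjamini-Hochberg over all genes tested, threshold 0.05). DESeq2 1.42.0 was an alternative. Nothing in the labels says that replicates were separate cultures, so p-values measure the spread between these samples only. CPM values are normalised by TMM.

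Of the 751 SVAs, 114 on alternate haplotype and 2 on random contigs cannot be in the table. A peak or TSS was assigned to a bin by at least 1 bp. Overlaps were computed in Python 3.11.15 (numpy, pandas, SciPy) and tested on simulated intervals, and the edgeR fit on simulated counts. The sequence was read from the GRCh37 genome, and windows inside SVAs are not reported here. The named SVAs were the 8 with the most bin pairs, and SVA_D_r153 and SVA_E_r223. The named bin pairs were the 8 with the most contacts and the 5 with the most among those of at least 100 kb with a coding TSS in the partner anchor. The named genes were the protein-coding contacted genes with the most contacts (10), the largest falls and rises (8 each, mean of at least 1 CPM, groups not overlapping) and RNF24. Further SVAs and the genes in SVA bins were chosen after their values were seen. An interval is given at 95% and covers counting error only.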

Additional observations from a re-analysis of the deposited data

How the results depend on the processing

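The number of SVA bin pairs was 8861 with at least 50% of the SVA, or its midpoint, inside the anchor, and 8378 with SVAs of at least 200 bp, against 9874. It was 952 with at least 5 contacts, 162 above 0 in all 6 columns and 1972 above 0 in at least 2 columns of a category, and from 8114 to 9364 without 1 column. The median span of 290 kb became 55 kb with at least 5 contacts and 35 kb above 0 in all columns. The share of partner anchors with a TSS, 42.68%, became 35.28% for protein-coding genes, 58.34% with at least 5 contacts, 70.37% above 0 in all columns and 64.15% with the anchor widened by its own width on each side. The share with a YY1 peak in both libraries without doxycycline, 42.55%, became 38.77% at −log10 q of at least 5, 52.37% with a peak in either library, 40.79% with equal numbers of peaks, and 46.67% to 48.25% without 1 replicate.

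The differences in SVAs with a peak kept their direction under all alternatives, from 142 to 227 for H3K9me3 and from -54.5 to -25 for YY1 at SVAs with a bin pair, except that YY1 at SVAs without a bin pair went from 1 to 0 with equal numbers of peaks and with at least 50% of the SVA covered. The 436 contacted genes that passed became 492 with DESeq2, 438 with its size factors, 471 without a filter, 109 with a fold threshold of 0.5 on the log2 scale, in either direction, 104 with at least 5 contacts, 26 above 0 in all columns, and 216 to 519 without 1 library. Same-numbered RNA libraries deviated together with correlations of 0.128, 0.08 and -0.001, so the numbers do not pair them, and with the replicate block 529 genes passed. The 24 genes in SVA bins became 15 with a fold threshold of 0.5 on the log2 scale, in either direction, and 15 to 24 without 1 library. The share of lower genes among the 436 was 53.4%, and 62.4% to 66.3% without no-doxycycline replicate 2 or 3 or doxycycline replicate 1 or 2. The causes were not tested. The share over all genes under the same setting is not set beside these counts and shares. They are therefore not read as a trait of the contacted genes or of the genes in SVA bins. All alternatives for genes in SVA bins, and the omission of SVA_D_r82, were chosen after seeing the data.

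Of 36 named genes, 32 kept their call under all 10 alternatives, and no called direction reversed. PPP1R8 passed with DESeq2 alone. No test between the HiChIP categories, and so none of its alternatives, was run, since the columns could not be tied to a treatment. Counts are low, and 64.24% of the SVA bin pairs rest on 1 contact.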

Other observations

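The contact CPM of SVA bins fell apart by category. The 3 Category1 columns (2828, 2672 and 2681) were all above the 3 Category2 columns (2164, 2372 and 2487), and so they were for the 76 bins with a YY1 peak on the SVA (1074, 1147 and 1115, then 640, 765 and 737). Without the bins of SVA_D_r82, all SVA bins took 2700, 2458 and 2533, then 2153, 2349 and 2441. The order held there only narrowly, since 2458 and 2441 lie closer together than the intervals given above are wide. For the bins with a YY1 peak on the SVA it held with 946, 932 and 968, then 629, 742 and 691. The 507 SVA bins with that peak neither on the SVA nor in the bin overlapped between categories (929 to 1008, then 931 to 1038). Which category had doxycycline is not given, so no direction with treatment follows from these values. The 24 bins whose SVA had YY1 in both libraries without doxycycline and in neither with it took a contact CPM of 188 to 219 in Category1 and 118 to 176 in Category2. Classed by YY1 peaks anywhere in the bin instead, 300 bins of the whole table had that pattern. They took 1055, 1115 and 1006, then 966, 793 and 947, and can include bins of the 24.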
